A study of Mus musculus with 4 samples.

Results

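The genes examined here are 33 genes of pancreatic islet endocrine cells other than the hormone genes themselves: 11 transcription factor genes, 5 genes of hormone processing, 10 genes of secretory granule proteins, 4 genes of glucose entry and the ATP-sensitive potassium channel, and 3 genes of incretin receptors and a carrier protein. They were chosen by symbol, and all 33 were found among the 55401 genes of the count table. The table was measured by RNA-seq of poly(A) RNA in 4 libraries of mouse tissue taken beside pancreatic tumours, with Panc02, a mouse pancreatic ductal adenocarcinoma line, given as the cell line. Libraries WT 1 and WT 2 carried the genotype WT, and CRFR1-KO 1 and CRFR1-KO 2 the genotype CRFR1-KO, described in the series as a conditional knockout in tumour-bearing mice. CRFR1, encoded by Crhr1, is a receptor for the stress peptide corticotropin-releasing factor. The promoter driving the recombinase, the age, strain and sex of the mice, and whether each library came from its own animal are not stated in the labels, so the p-values reflect how much these 4 libraries vary, and that variation may be technical.

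Islets are small clusters of hormone-secreting cells scattered through the exocrine pancreas. Transcription factors such as Pdx1, Nkx6-1, Mafa and Pax6 set and hold the identity of the beta, alpha and delta cells. Prohormones are sorted into dense-core granules with chromogranins and secretogranins and are cut there by the prohormone convertases. In the beta cell, the metabolism of incoming glucose closes the ATP-sensitive potassium channel and so triggers release of the granules, and incretin receptors amplify that release.

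Between 63495457 and 71203640 counts were deposited per library. The tissue was mostly exocrine: 15 acinar genes alone held 42.5% to 44.7% of all counts, while the 33 endocrine genes held 0.0127% to 0.0159%. The scaled levels used below are counts-per-million (CPM) on library sizes scaled by the trimmed mean of M values (TMM). On this scale the acinar genes summed to 359970 CPM in WT 1 and to 467740, 497000 and 433470 CPM in WT 2, CRFR1-KO 1 and CRFR1-KO 2. Of the 15, 11 were lowest in WT 1, against 24.3% of all tested genes. Crhr1 had a count of 0 in all 4 libraries, so it gave no check of the genotypes. Islet tissue was present in each library by its hormone genes, among them Ins2 (1570 counts for WT 1, 7602 for WT 2, 7505 for CRFR1-KO 1 and 10509 for CRFR1-KO 2) and Gcg (676, 5039, 2553 and 2273 counts in the same order). The 8 hormone genes summed to 37.8 CPM for WT 1, 257 CPM for WT 2, 225 CPM for CRFR1-KO 1 and 280 CPM for CRFR1-KO 2. WT 1 thus stood apart from the other 3 libraries in islet hormone RNA, and fold changes below are given with and without it. Markers of some other cells summed highest in the same library, but those of lymphocytes, adipocytes, nerve cells and intestine did not. The 12 fibroblast markers summed to 611 CPM in WT 1 and to between 236 and 349 CPM in the others. The 11 macrophage markers summed to 133 against 47.9 to 96.2 CPM, with 11 of 11 highest in WT 1, against 26.1% of all tested genes. The 8 stress response markers summed to 14.8 against 7.82 to 9.09 CPM. Both CRFR1-KO libraries lay below both WT libraries for 10 of the 12 fibroblast and 6 of the 11 macrophage markers, against 16.9% of all tested genes. The part of the acinar, fibroblast, macrophage and stress markers in the results below was not tested. In bulk tissue, fewer islet cells and less RNA per cell cannot be told apart.

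The endocrine gene set split by how it behaved in WT 1. Of the 33 genes, 31 passed the filter on low counts, and 24 of these 31 were lowest in WT 1, whereas 24.3% of all 15131 tested genes were. In 19 of the 31 the mean of the other 3 libraries was more than 3 times the level in WT 1, which held for 2.74% of all tested genes. That mark was chosen after the values were seen. Just inside it lay Rfx6 at 3.37 times, and just outside it Resp18 at 2.96 times. The hormone genes behaved likewise, with 7 of 7 tested past the mark. At the other end, the level in WT 1 was 1.02 times the mean of the others for Pdx1, 1.27 times for Nkx2-2, 1.35 times for Glp1r and 1.48 times for Hhex. The 2 genes that did not pass the filter were Vgf, a neuroendocrine secretory peptide gene with a count of 0 in all 4 libraries, and Irx2, an alpha cell transcription factor gene with 5 counts in CRFR1-KO 1 and 0 in the others. A floor of 3 counts allows Vgf between 0.0363 and 0.048 CPM per library.

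**Figure D1:**
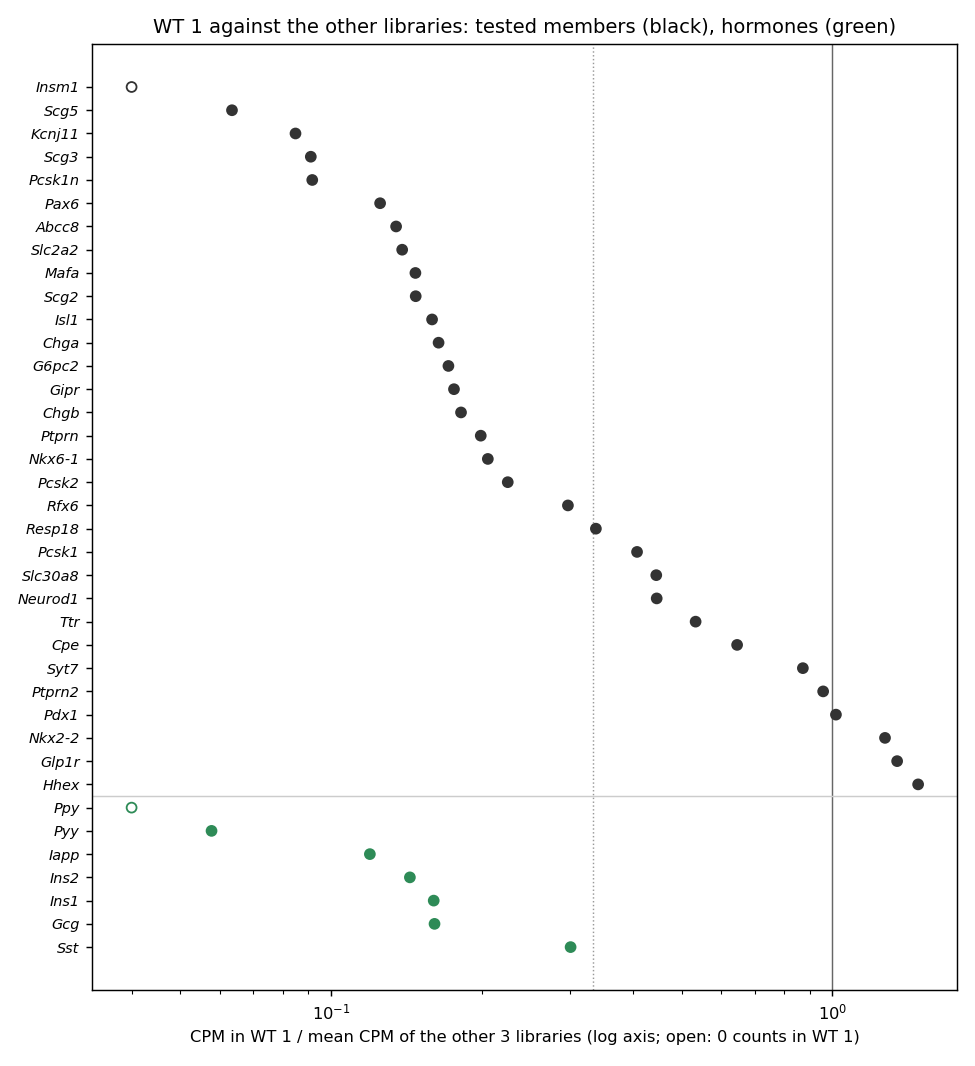
The level in WT 1 divided by the mean level of the other 3 libraries is plotted on a log axis for the 31 tested endocrine genes (black) and the 7 tested hormone genes (green), with open circles for genes with a count of 0 in WT 1. The solid line marks equal levels and the dotted line a ratio of 0.33, and 19 endocrine genes and 7 hormone genes lie left of the dotted line.

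Summed over the 33 genes, the level was 107 CPM for WT 1, 157 CPM for WT 2, 154 CPM for CRFR1-KO 1 and 154 CPM for CRFR1-KO 2. WT 1 was the lowest, but by far less than for the hormones, and 3 genes held most of the sum in each library. Ptprn2, Glp1r and Cpe together made up 75.9% of it for WT 1, 51.8% for WT 2, 59.7% for CRFR1-KO 1 and 53.4% for CRFR1-KO 2. Without them the sums were 25.9, 75.9, 62.2 and 71.7 CPM in the same order of libraries. Per length of merged exons, in transcripts-per-million (TPM, mean over the 4 libraries), Cpe at 16.6 and Ttr at 14.7 were the highest, followed by Ptprn2 at 7.28, Glp1r at 7.26, Chga at 6.63 and Scg2 at 3.85. Cpe and Ttr overlapped in their ranges over libraries (11.002 to 23.2 and 10.6 to 20.7 TPM), as did Ptprn2, Glp1r and Chga.

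Over the whole table, 4 of 15131 genes passed the edgeR quasi-likelihood test at an adjusted p of 0.05 (0.0264%), 0.0132% higher and 0.0132% lower in CRFR1-KO. Among the 31 endocrine genes 0 passed in either direction. DESeq2 and limma-voom also called 0 of the 31, where DESeq2 called 0.377% of all genes and limma-voom 0%. At an unadjusted p of 0.05 edgeR had 3 of the 31, Hhex lower and Pcsk1 and Slc2a2 higher in CRFR1-KO, against 4.86% of all tested genes. The fitted log2 fold change of CRFR1-KO over WT was above 0 for 22 genes and below 0 for 9, with a median of 0.49, while 49.2% of all tested genes were above 0 and their median was -0.0063. In 8 of the 31 both CRFR1-KO libraries lay above both WT libraries, against 16.6% of all tested genes, and in 1 of the 31, Hhex, both lay below, against 16.9%.

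That lean toward CRFR1-KO rested on WT 1. As 24 of the 31 genes were lowest there, leaving it out was bound to lower most of the fold changes. Without WT 1 the median was -0.27, with 14 genes above 0 and 17 below, and 51.1% of all tested genes above 0. In that fit 0 endocrine genes passed edgeR over all genes, where 0.253% did, and 7 were at an unadjusted p under 0.05, against 8.69% of all genes. Without WT 2, which left WT 1 as the lone WT library, the median was 2.17, with 27 above 0 and 4 below, and 50.8% of all tested genes above 0. Then 18 were at an unadjusted p under 0.05, against 7.34% of all genes, and 3 passed edgeR over all genes, each higher in CRFR1-KO: Chga (log2 fold change 2.52, adjusted p = 0.00642), Scg2 (2.83, adjusted p = 0.0297) and Scg3 (3.46, adjusted p = 0.0421), where 0.43% of all genes passed, 0.143% higher in CRFR1-KO. Without CRFR1-KO 1 and without CRFR1-KO 2 the median was 0.47 and 0.26. In such fits the lone library is assumed to vary like those of the other group.

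**Figure D2:**
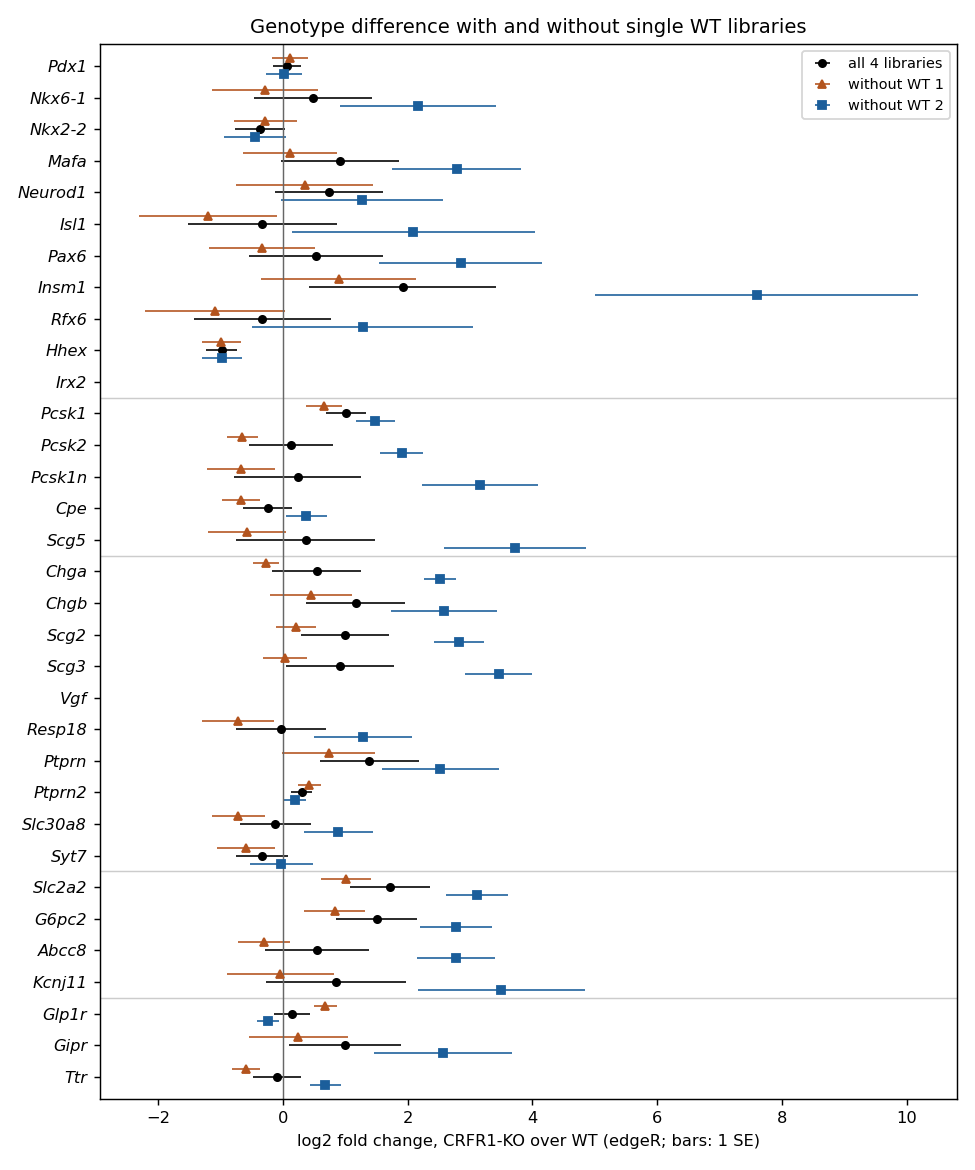
Log2 fold changes of CRFR1-KO over WT from edgeR are shown with bars of 1 SE for all 4 libraries (black circles), without WT 1 (orange triangles) and without WT 2 (blue squares), with genes ordered by role and no value for the untested Irx2 and Vgf. The median over genes is 0.49, -0.27 and 2.17 in the 3 fits, and Hhex lies between -0.98 and -0.97 in each.

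Among the transcription factors, the smallest p was that of Hhex, a homeobox gene of delta cells that is also expressed in ducts and endothelium (ENSMUSG00000024986; chromosome 19, 37434810 to 37440731, GRCm38 in GENCODE M21). Its level was 3.81 CPM for WT 1, 3.84 for WT 2, 1.98 for CRFR1-KO 1 and 1.89 for CRFR1-KO 2. The WT libraries lay close together and above both CRFR1-KO libraries. Its mean was 3.82 ± 0.017 CPM over the WT libraries and 1.94 ± 0.064 CPM over the CRFR1-KO libraries (± SD, n = 2 per genotype), a log2 fold change of -0.98 with an SE of 0.25, which did not pass over all genes (edgeR adjusted p = 0.801; DESeq2 adjusted p = 0.374). The log2 fold change lay between -1.01 and -0.94 when each library in turn was left out. Markers of ducts and endothelium were measured beside it. The 12 duct markers summed to 300 and 209 CPM in WT 1 and WT 2 and to 188 and 176 CPM in CRFR1-KO 1 and 2. Of the 12, 9 were below 0 on the log2 scale and 0 were at a count of 0 throughout. In 6 of the 12 both CRFR1-KO libraries lay below both WT libraries, against 16.9% of all tested genes. In 1 both lay above, against 16.6%. At an unadjusted p of 0.05 edgeR had 5 of the 12, each lower in CRFR1-KO, against 4.86% of all tested genes. The 10 endothelial markers summed to between 88.9 and 95.4 CPM. The part of duct cells in the Hhex difference was not tested. Sst, the delta cell hormone gene, had 97 and 328 counts in the WT libraries and 191 and 239 in the CRFR1-KO libraries, and so did not separate the genotypes.

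Pdx1, a master regulator of pancreas development and beta cell function, was nearly flat over the libraries, at 3.58 and 3.33 CPM in the WT libraries and 3.73 and 3.51 CPM in the CRFR1-KO libraries (0.07 on the log2 scale, SE 0.23). Nkx2-2, a homeobox gene needed for beta and alpha cell fate, stood at 1.60 and 1.42 CPM in the WT libraries and 1.46 and 0.886 CPM in the CRFR1-KO libraries (-0.37 on the log2 scale, SE 0.40). Neither followed the hormones into WT 1. Nkx2-2os, an RNA on the opposite strand whose exons overlap 278 bases of Nkx2-2, had 32 and 17 counts in the WT libraries and 15 and 9 in the CRFR1-KO libraries, and because the strand setting of the counting is not given, reads of the pair cannot be told apart with certainty. Without WT 1 the log2 fold changes were 0.12 for Pdx1 and -0.28 for Nkx2-2.

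The remaining islet factors were scarce, and each was lowest in WT 1. Mafa, an activator of insulin transcription in mature beta cells, had 10 counts for WT 1, 51 for WT 2, 27 for CRFR1-KO 1 and 82 for CRFR1-KO 2. Nkx6-1, a beta cell identity factor, had 8, 35, 32 and 24 counts in that order. Pax6, needed in all islet cell types, had 6, 44, 17 and 52. The ranges of the 2 genotypes overlapped for these 3 genes. Isl1, a factor shared by all endocrine types, had 4, 32, 16 and 11 counts in the same order. Rfx6, a factor of endocrine differentiation, had 8, 33, 22 and 8. WT 2 was the highest library for both. Without WT 1 the log2 fold changes were 0.11 for Mafa, -0.28 for Nkx6-1, -0.33 for Pax6, -1.20 for Isl1 and -1.08 for Rfx6. Neurod1, a helix-loop-helix activator, had 12 and 18 counts in the WT libraries and 19 and 26 in the CRFR1-KO libraries, and Insm1, a zinc finger factor of endocrine cells, had 0 and 12 against 18 and 26. Both separated the genotypes as deposited, at log2 fold changes of 0.74 (SE 0.86) and 1.92 (SE 1.49), but with so few counts each SE was large and neither passed (adjusted p = 0.9999 by edgeR for both). Without WT 1 these values were 0.35 and 0.90, and without WT 2 that of Neurod1 was 1.27, while Insm1 was then set against a WT count of 0 and its fitted value is no bound. Neurod1 shares exon bases with Cerkl, which had 6 counts in WT 2 and 0 in the others. With the counts of both models added, WT 2 lay above CRFR1-KO 1, the genotypes overlapped, and the log2 fold change was 0.46.

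**Figure D3:**
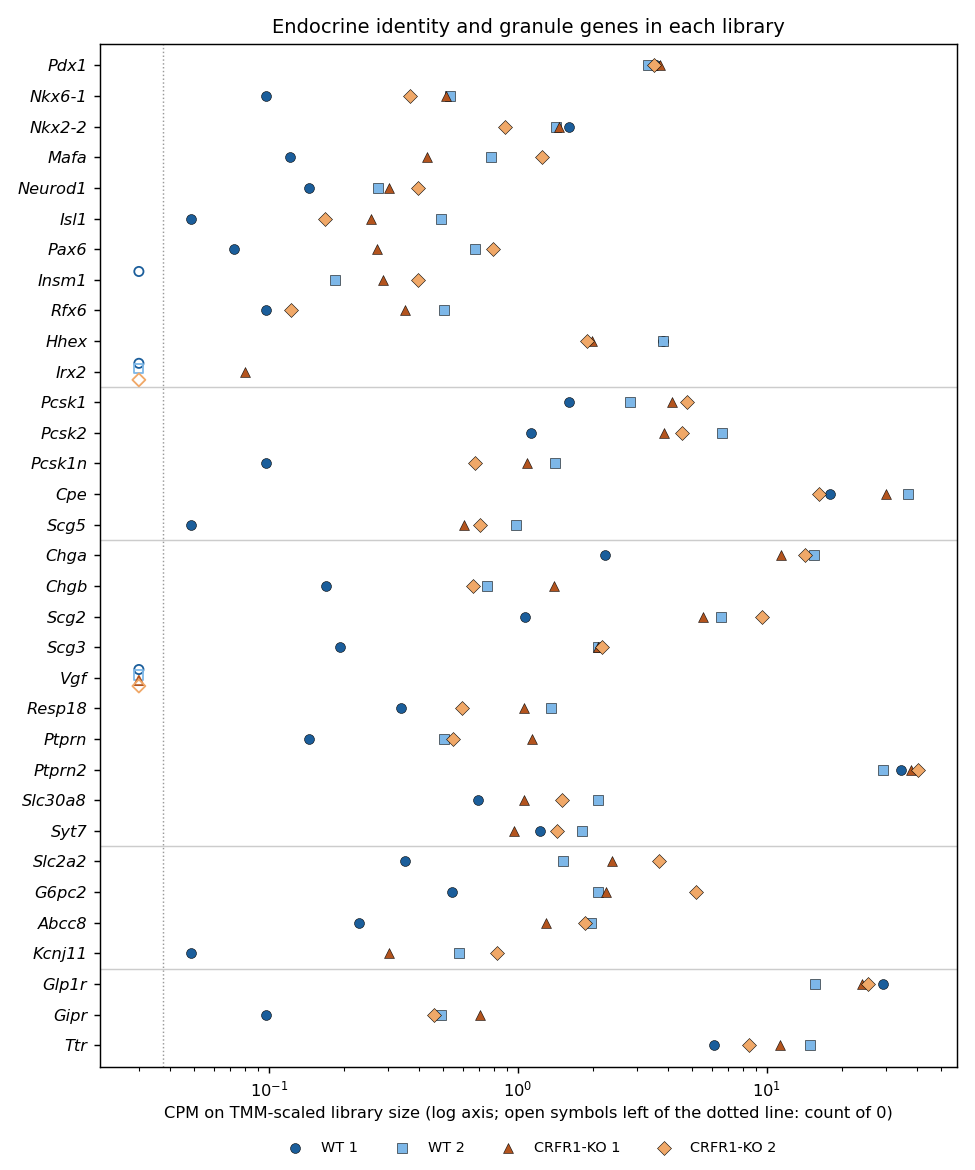
Each row gives the level of 1 gene in CPM on a log axis in WT 1 (dark blue circles), WT 2 (light blue squares), CRFR1-KO 1 (brown triangles) and CRFR1-KO 2 (orange diamonds), with open symbols left of the dotted line for a count of 0. Grey lines divide the roles, from transcription factors at the top to receptors and carrier at the bottom. WT 1 is the leftmost point for most granule and channel genes, but not for Pdx1, Nkx2-2, Hhex, Cpe, Ptprn2, Syt7 or Glp1r.

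In hormone processing, Pcsk1 and Pcsk2 ran differently. Pcsk1, the convertase that opens proinsulin processing (ENSMUSG00000021587; chromosome 13, 75089826 to 75134861), stood at 1.60 and 2.83 CPM in the WT libraries and 4.16 and 4.77 CPM in the CRFR1-KO libraries. Both CRFR1-KO libraries were above both WT libraries, with means of 2.21 ± 0.87 and 4.46 ± 0.43 CPM (± SD, n = 2 per genotype). The log2 fold change was 1.02 (SE 0.32, edgeR adjusted p = 0.941), and without WT 1 it was 0.66 (edgeR adjusted p = 0.572).

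Pcsk2, the convertase that dominates in alpha cells, stood at 1.13 and 6.59 CPM in the WT libraries and 3.87 and 4.54 CPM in the CRFR1-KO libraries, so WT 2 was the highest and WT 1 the lowest. Its log2 fold change of 0.13 (SE 0.67) became -0.65 (SE 0.24) without WT 1. The genes of their partner proteins were, like the hormones, lowest in WT 1. Pcsk1n, encoding the convertase inhibitor proSAAS, had 8 and 92 counts in the WT libraries and 68 and 44 in the CRFR1-KO libraries, and Scg5, encoding the Pcsk2 chaperone 7B2, had 4 and 64 against 38 and 46. Both were highest in WT 2. Cpe, encoding the carboxypeptidase that trims hormone ends after the convertases and is found in many other cells, stood at 17.8 and 36.8 CPM in the WT libraries and 30.03 and 16.1 CPM in the CRFR1-KO libraries, and its ranges overlapped. Without WT 1 the log2 fold changes were -0.67 for Pcsk1n, -0.57 for Scg5 and -0.67 for Cpe.

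The granins are acidic proteins that fill dense-core granules. For Chga, Chgb, Scg2 and Scg3 the mean of the other 3 libraries was between 5.51 and 10.98 times the level in WT 1. Chga, encoding chromogranin A (ENSMUSG00000021194; chromosome 12, 102554969 to 102565028), stood at 2.24 CPM for WT 1, 15.4 for WT 2, 11.3 for CRFR1-KO 1 and 14.2 for CRFR1-KO 2. Scg2, encoding secretogranin II, stood at 1.06, 6.55, 5.52 and 9.58 CPM in that order, and Scg3, which ties granins to the granule membrane, at 0.194, 2.09, 2.10 and 2.18 CPM. For Scg3 the 3 libraries other than WT 1 were within 1.04 times of each other. Chgb, encoding chromogranin B, had 14 and 49 counts in the WT libraries and 87 and 43 in the CRFR1-KO libraries.

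With all 4 libraries the log2 fold changes were 0.54 (SE 0.71) for Chga, 0.997 (SE 0.71) for Scg2, 0.92 (SE 0.86) for Scg3 and 1.17 (SE 0.79) for Chgb. Without WT 1 they were -0.27, 0.21, 0.033 and 0.45. WT 1 was the lowest library for all 4 genes, so leaving it out was bound to give smaller values. The sign turned for Chga.

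The cyclic AMP response element is a binding site of CREB-family factors that is known from granin genes, and the stretches that hold its letters are shown here for their sequence alone. In the 250 bases before each RefSeq gene start (GRCm38.p6), TGACGTCA was present in 4 of the 26 windows of the 23 endocrine genes that had one, those of Scg2, Chgb, Pcsk1 and Pax6, and in 1.55% of all 32851 windows. The near spelling TGACGTAA was present in 1 of the 26, that of Chga, and in 0.447% of all windows. Both strands were searched, and the shared letters TGACG stood in 13 of the 26 and in 17.8% of all windows. Among Chga, Chgb, Scg2 and Scg3, the lowest level in WT 1 relative to the others was that of Scg3. Its window held the short letters TGACG but neither full spelling. The letters TGACG stood in the windows of 12 genes, and all of these but the untested Irx2 were lowest in WT 1. So were 24 of all 31 tested endocrine genes, against 24.3% of all tested genes. For Pcsk1, which held TGACGTCA, the mean of the others was 2.45 times the level in WT 1, short of the mark of 3 times. None of these strings stood in the windows of Pcsk1n, Slc2a2, G6pc2, Rfx6, Neurod1 and Resp18, which were also lowest in WT 1. Nor did any stand in those of Hhex, Pdx1, Nkx2-2, Ptprn2 and Glp1r, which were not lowest there. A link between the letters and the level in WT 1 was not tested. In the 30 bases below, written 5′ to 3′ on the strand of the gene, capitals mark the element:
Scg2: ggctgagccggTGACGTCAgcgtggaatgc
Chgb: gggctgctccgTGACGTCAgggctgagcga
Pcsk1: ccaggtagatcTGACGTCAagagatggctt
Pax6: tctggccgccgTGACGTCAtccgcgcccgg
Chga: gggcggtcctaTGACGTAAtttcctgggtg
They lie at chr1:79440076-79440105 (minus strand), chr2:132781559-132781588, chr13:75089768-75089797, chr2:105668809-105668838 and chr12:102554886-102554915 (plus strand for the last 4). The elements open 68, 72, 78, 76 and 44 bases before the RefSeq start in that order. Those of Scg2 and Chgb overlap an exon of their own gene in GENCODE M21, whose annotated starts lie further upstream, and the other 3 lie upstream of the annotated exons. A match is a description of letters, not of a bound site.

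Other granule proteins divided into those that were low in WT 1 and those that were not. Ptprn and Ptprn2 encode the related granule membrane proteins IA-2 and IA-2beta, both autoantigens in type 1 diabetes. Ptprn had 12 and 33 counts in the WT libraries and 71 and 36 in the CRFR1-KO libraries (1.38 on the log2 scale, SE 0.79), and separated the genotypes narrowly. Ptprn2 (ENSMUSG00000056553; chromosome 12, 116485720 to 117276849) was far more abundant, at 34.4 and 29.3 CPM in the WT libraries and 38.0 and 40.6 CPM in the CRFR1-KO libraries. It too separated the genotypes, at 31.8 ± 3.7 and 39.3 ± 1.9 CPM (± SD, n = 2 per genotype), with a log2 fold change of 0.30 (SE 0.17, edgeR adjusted p = 0.9999). Per length, Ptprn2 at 7.28 TPM exceeded Ptprn at 0.229 TPM (means over the 4 libraries). Without WT 1 the log2 fold changes were 0.74 for Ptprn and 0.43 for Ptprn2.

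Slc30a8, encoding the zinc transporter of insulin granules, had 57 and 137 counts in the WT libraries and 66 and 98 in the CRFR1-KO libraries. Resp18, a granule lumen protein gene, had 28 and 89 counts in the WT libraries and 66 and 39 in the CRFR1-KO libraries. Syt7, encoding a calcium sensor of exocytosis, had 101 and 118 against 60 and 94. WT 2 was the highest library for these 3 genes, and their log2 fold changes were -0.12 (SE 0.56), -0.033 (SE 0.72) and -0.33 (SE 0.41). Without WT 1 they were -0.71, -0.72 and -0.59.

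Of all roles, the genes of glucose entry and the potassium channel leaned most toward CRFR1-KO, with 4 of 4 above 0 and a median log2 fold change of 1.18. Slc2a2, the glucose transporter GLUT2 of mouse beta cells (ENSMUSG00000027690; chromosome 3, 28697903 to 28731359), stood at 0.351 CPM for WT 1, 1.51 for WT 2, 2.38 for CRFR1-KO 1 and 3.70 for CRFR1-KO 2. G6pc2, the islet glucose-6-phosphatase catalytic subunit, stood at 0.544, 2.09, 2.26 and 5.18 CPM in that order. In both genes each CRFR1-KO library was above each WT library, with CRFR1-KO 2 the highest, although for G6pc2 CRFR1-KO 1 exceeded WT 2 by little.

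The log2 fold change was 1.72 (SE 0.64, edgeR adjusted p = 0.9999) for Slc2a2 and 1.51 (SE 0.65, edgeR adjusted p = 0.9999) for G6pc2. Without WT 1 these were 1.01 (SE 0.40, edgeR adjusted p = 0.536) and 0.83 (SE 0.48, edgeR adjusted p = 0.666). The channel subunit genes did not keep that direction. Abcc8, the sulfonylurea receptor, had 19 and 128 counts in the WT libraries and 81 and 122 in the CRFR1-KO libraries, and Kcnj11, the pore subunit Kir6.2, had 4 and 38 against 19 and 54. Their log2 fold changes of 0.54 (SE 0.83) and 0.86 (SE 1.12) became -0.31 and -0.038 without WT 1.

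The 2 incretin receptor genes differed in abundance and in pattern. Glp1r, the receptor of glucagon-like peptide 1 and the target of GLP-1 drugs, stood at 29.3 CPM for WT 1, 15.5 for WT 2, 24.2 for CRFR1-KO 1 and 25.5 for CRFR1-KO 2, so that the WT libraries enclosed both CRFR1-KO libraries. Its log2 fold change was 0.15 (SE 0.29) with all libraries, -0.029 when scaled on library totals, 0.68 without WT 1 and -0.23 without WT 2. Gipr, the receptor of glucose-dependent insulinotropic polypeptide, had 8 and 32 counts in the WT libraries and 44 and 30 in the CRFR1-KO libraries, and was low in WT 1. For Gipr the log2 fold change was 0.998 (SE 0.90), and 0.25 without WT 1. Per length, Glp1r at 7.26 TPM exceeded Gipr at 0.210 TPM (means over the 4 libraries).

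Ttr encodes transthyretin, a carrier of thyroid hormone and retinol-binding protein made in liver and in alpha cells. It stood at 6.15 and 14.9 CPM in the WT libraries and 11.3 and 8.43 CPM in the CRFR1-KO libraries, and its ranges overlapped (-0.091 on the log2 scale, SE 0.39, and -0.59 without WT 1). Liver transcripts were near 0: 12 liver markers summed to 2.12, 0.611, 0.384 and 1.85 CPM in WT 1, WT 2, CRFR1-KO 1 and CRFR1-KO 2, and 4 of the 12, Fgb, Serpina1a, Serpina1c and Cyp3a11, were at 0 throughout. The part of liver RNA in the Ttr values was not tested.

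Expressed per 1000 counts of the 8 hormone genes, several genes became nearly level over all 4 libraries. Chga gave 59.2 and 59.8 counts in the WT libraries and 50.4 and 50.9 in the CRFR1-KO libraries, a span of 1.19 times where its CPM spanned 6.88 times. Abcc8 gave 6.08 and 7.60 in the WT libraries and 5.76 and 6.66 in the CRFR1-KO libraries, and Scg2 gave 28.2, 25.5, 24.5 and 34.2 in the order used above. Of 30 tested endocrine genes above 0 in every library, 17 had a narrower span per hormone count than in CPM, against 1.98% of all such tested genes. Without WT 1 this was 15 of 31, against 34%. With WT 1, where hormone counts were low, mainly genes also low there can narrow on this scale. The share of 17 of 30 thus largely restates their low level in WT 1.

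Glp1r and Ptprn2 were among the genes that did the opposite. Hhex and Nkx2-2 were also highest in WT 1 per hormone count, with spans of 14.9 and 13.3 times. Glp1r gave 774 counts per 1000 hormone counts in WT 1 and 60.3, 108 and 91.1 in the other libraries, and Ptprn2 gave 911 against 114, 169 and 145. The levels of Glp1r and Ptprn2 therefore did not follow the hormone genes into the library where these were low. Genes and hormones share each library's depth and tissue piece, so these spans are descriptions.

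**Figure D4:**
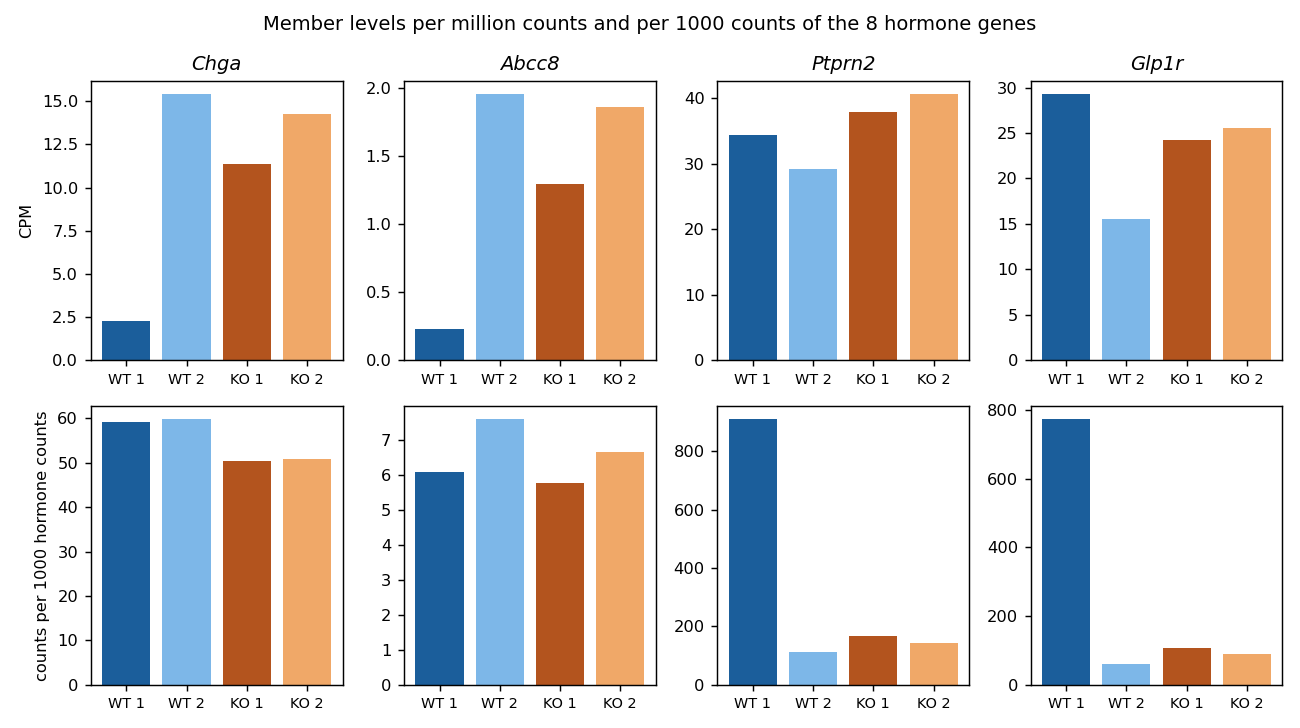
Bars give Chga, Abcc8, Ptprn2 and Glp1r in each library as CPM (top) and as counts per 1000 counts of the 8 hormone genes (bottom), with axes from 0 and KO standing for CRFR1-KO. Chga and Abcc8 are low in WT 1 at the top and level at the bottom (50.4 to 59.8 and 5.76 to 7.60), while Ptprn2 and Glp1r are not low in WT 1 at the top and are high there at the bottom (911 and 774).

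On the same hormone scale, 10 of the 31 genes had both CRFR1-KO libraries below both WT libraries, against 27.3% of all tested genes, and 2 of the 31, Insm1 and Slc2a2, had both above, against 0.337%. Hormone counts were 3125 in WT 1 and 14056 to 18326 in the others, which raises WT 1 for genes with similar CPM in all libraries. The share of 0.337% thus follows largely from the divisor, and genes low in WT 1 meet that mark more easily. Slc2a2 gave 9.28 and 5.88 counts per 1000 hormone counts in the WT libraries and 10.6 and 13.2 in the CRFR1-KO libraries. Per 1000 insulin counts, those of Ins1 and Ins2, it gave 13.7 and 10.1 against 15.1 and 17.5. Pcsk2 gave 29.8 and 25.6 counts per 1000 hormone counts in the WT libraries and 17.2 and 16.2 in the CRFR1-KO libraries. The hormone mixture itself differed between libraries: the ratio of Gcg to Ins2 counts was 0.431 and 0.663 in the WT libraries and 0.340 and 0.216 in the CRFR1-KO libraries. With 2 libraries against 2 an exact two-sided permutation test cannot go below p = 0.33, so no test was made of these ratios.

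Other genes of endocrine cells were taken from lists of further transcription factors, secretion machinery, excitability and metabolism, and receptors. In that order 0 of 16, 0 of 23, 0 of 19 and 0 of 17 tested genes passed edgeR in either direction. Over all tested genes 0.0264% passed. At an unadjusted p under 0.05 edgeR had 2, 1, 2 and 0 of them, against 4.86% of all tested genes. DESeq2 called 1, 0, 0 and 0 and limma-voom 0 in each, against 0.377% and 0% of all tested genes. Prox1, a homeobox gene of islets, ducts and lymphatic vessels, had 329 and 309 counts in the WT libraries and 118 and 90 in the CRFR1-KO libraries (-1.41 on the log2 scale, SE 0.29, edgeR adjusted p = 0.586), and it was the gene that DESeq2 called lower (adjusted p = 0.0391), where 0.291% of all genes were. The sum of the duct markers given with Hhex was higher in both WT libraries too, though 3 of the 12 lay above 0 on the log2 scale. The part of duct cells in the Prox1 difference was not tested.

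Ica1, an islet autoantigen gene of granule trafficking, stood at -0.51 (SE 0.17) and the calcium channel gene Cacna1a at 0.59 (SE 0.20) on the log2 scale. Both separated the genotypes without passing. So did 9 of the 23 tested secretion genes and 11 of the 19 tested excitability and metabolism genes, in either direction, against 33.5% of all tested genes. Ucn3, a peptide gene of mature beta cells, had 4 and 33 counts in the WT libraries and 33 and 69 in the CRFR1-KO libraries. Gene lists of these kinds had median log2 fold changes of 0.018, 0.021, -0.061 and -0.037, where that of all tested genes was -0.0063.

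Granule genes are also expressed by nerve cells and by endocrine cells of the gut. The 15 neuronal markers summed to between 0.736 and 1.97 CPM, and 5 of them, among them Elavl3, Dbh and Chat, were at 0 in all 4 libraries. The 12 intestinal markers summed to between 0.565 and 1.60 CPM, with 7 at 0 in all 4 libraries, among them Cdx2, Cdx1 and Cck. Schwann cell markers, 10 genes with Sox2 at 0, summed to between 9.49 and 13.1 CPM. The part of nerve, gut and Schwann cells in the granule gene values was not tested.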

How the data were processed

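RNA-seq counts of 4 libraries (2 WT, 2 CRFR1-KO) were used. Poly(A) RNA was purified on oligo(dT) beads and libraries kept strand by dUTP, per the labels' protocols. The authors deposited whole-number counts per Ensembl gene, with no scaling. The submitters' processing notes name FastQC, DESeq2 and edgeR without versions. For the aligner, counter, strand setting, annotation and genome build, nothing is given in the sources used here. Columns were matched to libraries by the library names in the labels.

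Symbols, positions and merged exon lengths came from GENCODE M21 (GRCm38), in which 55141 of the 55401 identifiers had a symbol. Ero1b was matched through its synonym in RefSeq. Genes passing filterByExpr (15131) were fitted with edgeR 4.0.16 in R 4.3.3 (TMM scaling, genotype alone in the design, a two-sided quasi-likelihood test, Benjamini-Hochberg adjustment over all tested genes). The SE was derived from the F statistic. Levels are CPM on scaled library sizes. DESeq2 1.42.0 and limma 3.58.1 (voom) were alternatives, with other scalings, other filters, a replicate block, summed exon-sharing models, counts divided by 4, and each library left out. When tested on simulated data with the genotype design (CRFR1-KO against WT, 3 simulations of 15131 genes, 200 changed), edgeR called 29.3% of 2-fold and 68% of 4-fold changes and 0.0357% of unchanged genes. The simulated spread followed the all-gene trend with level, not each gene's own spread. These shares therefore need not hold for the endocrine genes.

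All 33 genes are named; from each further endocrine list at most the 4 genes of smallest p could be named. Not every gene so chosen is reported here. The genes, lists and rules were chosen with earlier results of these data known. Promoter windows came from the RefSeq table for GRCm38.p6, which held 23 of the 33 genes.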

Additional observations from a re-analysis of the deposited data

How the results depend on the processing

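Depth limits the scarce genes. Of 17 endocrine genes with 1 to 50 counts in WT 1, 11 had a count divisible by 4, against 32.2% of all genes with such counts there. In WT 2, CRFR1-KO 1 and CRFR1-KO 2 it was 4 of 10, 3 of 11 and 4 of 11, against 32.2% to 32.6% of all genes, so the largest excess was in WT 1. A deposited count may not equal 1 read pair, and floors cover counting error only. Across the alternatives that kept all 4 libraries, 0 endocrine genes passed the threshold. All-gene calls went from 4 to 57 with DESeq2, and to 0 with limma-voom and with exon-sharing models summed. The endocrine median went from 0.49 to 0.14 with at least 1 CPM in 2 libraries (11 genes above 0 of 17 left), to 1.11 with limma-voom (4 below 0) and to 0.296 with counts divided by 4. The replicate number is shared by libraries only as a number (correlation of same-number deviations -0.0878 over 10895 genes). With the replicate block 7 genes passed over all genes and the endocrine median was 0.976, with 5 below 0. Single genes that turned sign were Isl1 (0.59), Rfx6 (0.064), Resp18 (0.32), Slc30a8 (0.156) and Ttr (0.058) with limma-voom. Under the replicate block these were Isl1 (0.302), Resp18 (0.203), Slc30a8 (0.050) and Ttr (0.025). Scaled on library totals, which moved the median of all genes to -0.133, Pdx1 (-0.0701) and Glp1r (-0.029) turned. Summed endocrine levels on library totals were 127 CPM in WT 1, 145 CPM in WT 2, 137.7 CPM in CRFR1-KO 1 and 158.7 CPM in CRFR1-KO 2, against 107, 157, 154 and 154 CPM with TMM, so WT 1 remained the lowest by a smaller gap. With DESeq2 size factors CRFR1-KO 1 was at 153.8 CPM, less than 1 CPM from its TMM value. The cause of these shifts was not tested.

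Leaving out 1 library at a time, the all-gene calls ranged from 0 to 69, the endocrine genes called from 0 to 3, those above 0 from 14 to 27, those below 0 from 4 to 17, and the median from -0.27 to 2.17. Gene by gene the log2 fold change ranged from -0.28 to 2.17 for Nkx6-1, -0.043 to 2.79 for Mafa, -1.20 to 2.10 for Isl1, -0.43 to 2.85 for Pax6, -1.28 to 1.28 for Rfx6, -0.65 to 1.90 for Pcsk2, -0.67 to 3.17 for Pcsk1n, -0.76 to 0.38 for Cpe, -0.57 to 3.72 for Scg5, -0.27 to 2.52 for Chga, -0.72 to 1.29 for Resp18, -0.71 to 0.89 for Slc30a8, -0.31 to 2.78 for Abcc8, -0.038 to 3.50 for Kcnj11, -0.23 to 0.68 for Glp1r and -0.59 to 0.68 for Ttr. The highest value came from leaving out WT 2, except for Glp1r, where it came from leaving out WT 1. Hhex, Pcsk1, Slc2a2, G6pc2 and Ptprn2 were among the genes that kept their direction in each of these fits.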
